A study of Mus musculus with 3 samples.

Results

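The metabotropic glutamate receptor genes Grm2, Grm3, Grm4, Grm5, Grm7 and Grm8 were examined for 5-hydroxymethylcytosine (5hmC) in mouse cerebellum. The 6 genes were taken by name, and each was measured over the 10 kb bins of the deposited genome-wide table that overlap its RefSeq gene body. They comprise 6 of 21676 protein-coding genes with a measured bin, and 273 of the 264399 bins. The 3 groups, each with 1 library, were cerebellum under chronic sleep deprivation profiled by DDD-seq, control cerebellum profiled by ACE-seq, and control cerebellum profiled by DDD-seq. Both control libraries carry a treatment label of normal or control. Strain, age, sex, the number of animals and the length of the deprivation are not given in the sources used here. All 3 libraries came from genomic DNA of whole tissue, so no cell-type marker could be checked, and the share of cells that carry 5hmC cannot be told apart from the amount per cell.

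DDD-seq protects 5hmC by glycosylation and deaminates the other cytosines, so that a base still read as C is scored as 5hmC. ACE-seq uses an APOBEC deaminase in the same role. The labels carry the same SsdAcat protocol for all 3 libraries. The level is the deposited fraction of a bin multiplied by 100, in percent. With 1 library per group no difference between libraries has a replicate check, and no p-value is given. The SD printed beside a level is the spread over the bins of a gene within 1 library, not between animals. The table holds no coverage, so the depth behind each level is unknown.

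Metabotropic glutamate receptors are G protein-coupled receptors for glutamate, and they fall into families by sequence and coupling. Group I, to which mGluR5 belongs, couples to phospholipase C and calcium release. Group II (mGluR2 and mGluR3) and group III (mGluR4, mGluR6, mGluR7 and mGluR8) inhibit adenylyl cyclase, often from the presynaptic terminal. In the cerebellum, mGluR4 acts on the parallel fibre terminals of granule cells, and mGluR2 is a marker of Golgi cells. TET enzymes form 5hmC from 5-methylcytosine, and in neurons it is most abundant in the bodies of expressed genes.

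Of the 6 genes, the 5 longer ones had gene-body levels above 37.5 to 69.0% of all protein-coding genes of at least 5 bins, and Grm2 was lower. Among genes within 20% of their bin number, the share was 42.0 to 57.3% for Grm3 and Grm4. It was 30.8 to 47.8% for Grm5 and 18.7 to 29.4% for Grm7 and Grm8. Over the 5 with at least 5 bins, the median level was 1.57% in the sleep-deprived library, 1.54% by ACE-seq and 1.58% in the DDD-seq control. The medians over all 6665 protein-coding genes of at least 5 bins were 1.53%, 1.49% and 1.54% in the same libraries. The range over the 5 genes was narrow, 1.41 to 1.81% in the sleep-deprived library, 1.40 to 1.66% by ACE-seq and 1.42 to 1.60% in the DDD-seq control. The order of these 5 genes differed between libraries, except that Grm8 was the lowest in each and Grm7 the next lowest. In every library the difference between any pair of the 5 genes was smaller than the SD over the bins of either.

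Grm6, a receptor gene of retinal bipolar cells and not among the 6 genes, had 1.26% in the sleep-deprived library, 1.02% by ACE-seq and 1.12% in the DDD-seq control over 2 bins.

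**Figure D1:**
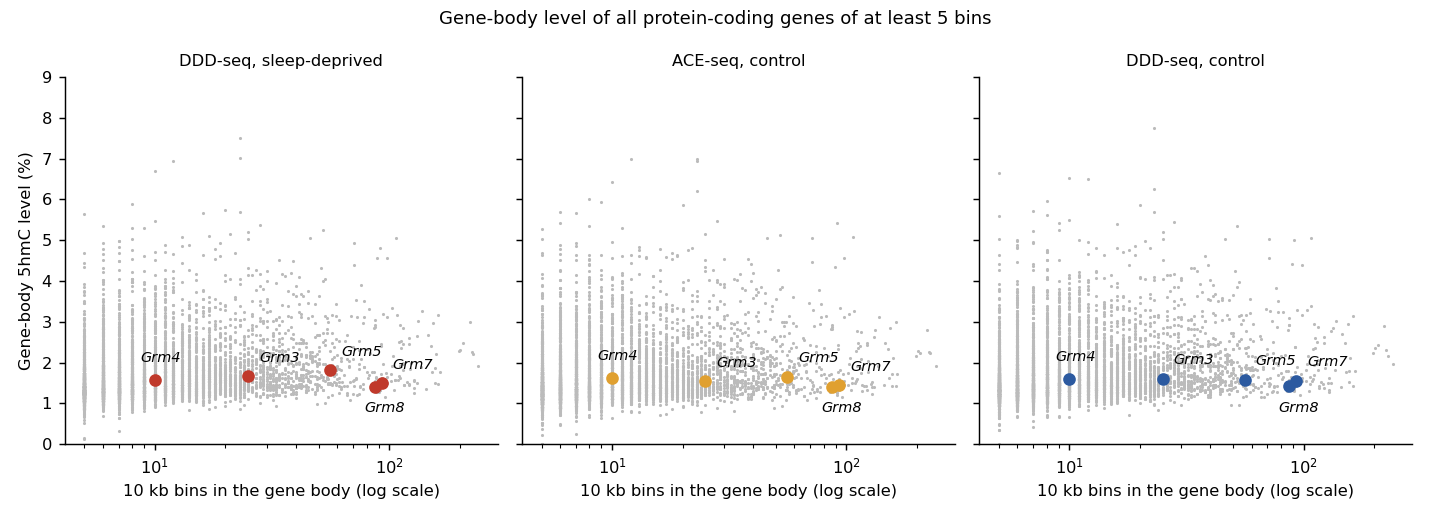
Gene-body 5hmC level in percent (y axis) against the number of 10 kb bins in the gene (x axis, log scale) for all protein-coding genes of at least 5 bins (grey), in the sleep-deprived, ACE-seq and DDD-seq control libraries. The filled points are Grm3, Grm4, Grm5, Grm7 and Grm8, which lie between 1.40 and 1.81%. The highest gene of the sleep-deprived library, at 13.4%, lies above the range drawn.

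Gene bodies were then set against the 100 kb on either side. A gene was counted as higher than its flanks when body over flank was at least 1.2, and as lower when it was at most 0.833. None of the 5 longer genes was higher than its flanks in all 3 libraries, against 27.9% of all genes, and none was lower in all 3, against 7.71%. In each library 1 of the 5 passed a threshold in either direction, against 49.8% of all genes in the sleep-deprived library, 52.8% by ACE-seq and 51.6% in the DDD-seq control. Under sleep deprivation it was Grm7, which was higher, as were 35.4% of all genes, while 14.3% were lower. By ACE-seq it was Grm8, which was lower, as were 15.9% of all genes, while 36.9% were higher. In the DDD-seq control it was Grm3, which was lower, as were 15.5% of all genes, while 36.1% were higher. None of these 3 calls held with flanks of 200 kb. The median of body minus flank over the 5 genes was 0.0488 percentage points in the sleep-deprived library, -0.0353 points by ACE-seq and -0.135 points in the DDD-seq control. Over all genes it was 0.103, 0.109 and 0.102 points.

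**Figure D2:**
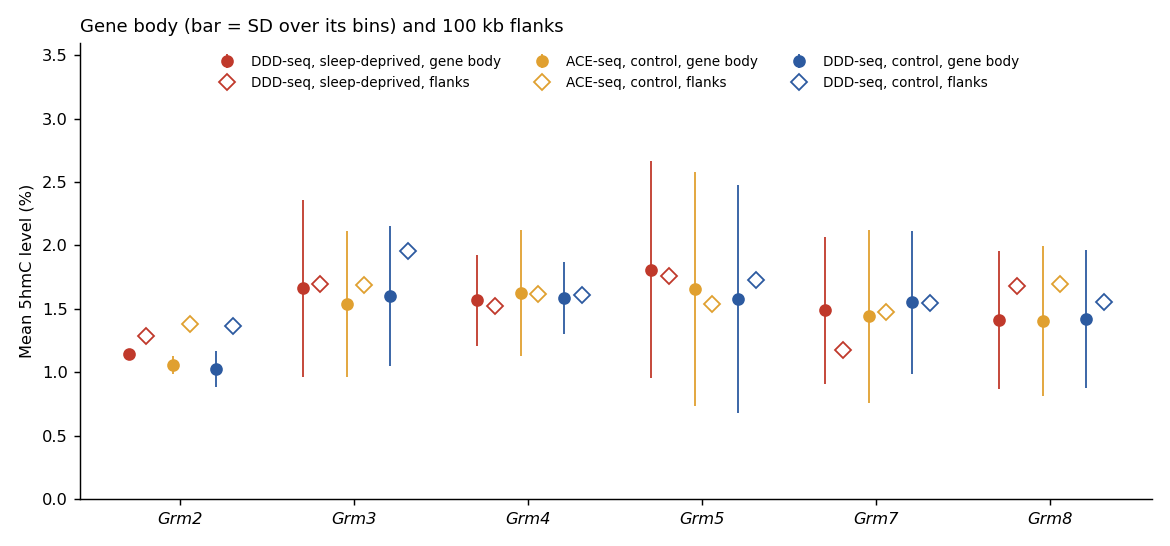
Mean 5hmC level in percent (y axis) of the gene body (filled circles, bar = SD over the bins of the gene) and of the 100 kb flanks (open diamonds) for each of the 6 genes in the sleep-deprived, ACE-seq and DDD-seq control libraries. Flank levels lie within the SD of the body for every gene in every library except Grm2, whose SD rests on 2 bins.

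Grm5 encodes the group I receptor mGluR5, which binds Homer scaffolds and is found on Golgi cells in the adult cerebellum. It lies on chromosome 7 from 87583981 to 88135063 (GRCm38) and covers 56 bins. Its level was 1.81% ± 0.854 in the sleep-deprived library, 1.66% ± 0.925 by ACE-seq and 1.58% ± 0.901 in the DDD-seq control. The flanks had 1.76%, 1.53% and 1.73%, so the body passed neither threshold in any library. Its bins ranged from 0.594 to 3.99% in the sleep-deprived library, from 0 to 5.54% by ACE-seq and from 0 to 4.97% in the DDD-seq control. A value of 0 was listed in 2 bins by ACE-seq and in 1 bin of the DDD-seq control.

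Within Grm5 the level was uneven, and a pair of high bins recurred in all libraries. The bin that was highest on average, 87870001 to 87880000, had 2.74% in the sleep-deprived library, 5.54% by ACE-seq and 4.39% in the DDD-seq control. A second bin, 87970001 to 87980000, had 3.99%, 3.09% and 4.97% in the same libraries. Both lay above the 90th percentile of autosomal bins in every library. That percentile was 2.43% in the sleep-deprived library, 2.42% by ACE-seq and 2.47% in the DDD-seq control. These 2 bins are 3.57% of the 56 bins of Grm5, a smaller share than the 5.07% of autosomal bins above it in all 3 libraries. The next bin, 87980001 to 87990000, had 3.63% in the sleep-deprived library and 3.34% by ACE-seq but 1.96% in the DDD-seq control. The table of genes gives no exons, so it was not determined whether these bins hold exons or introns.

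**Figure D3:**
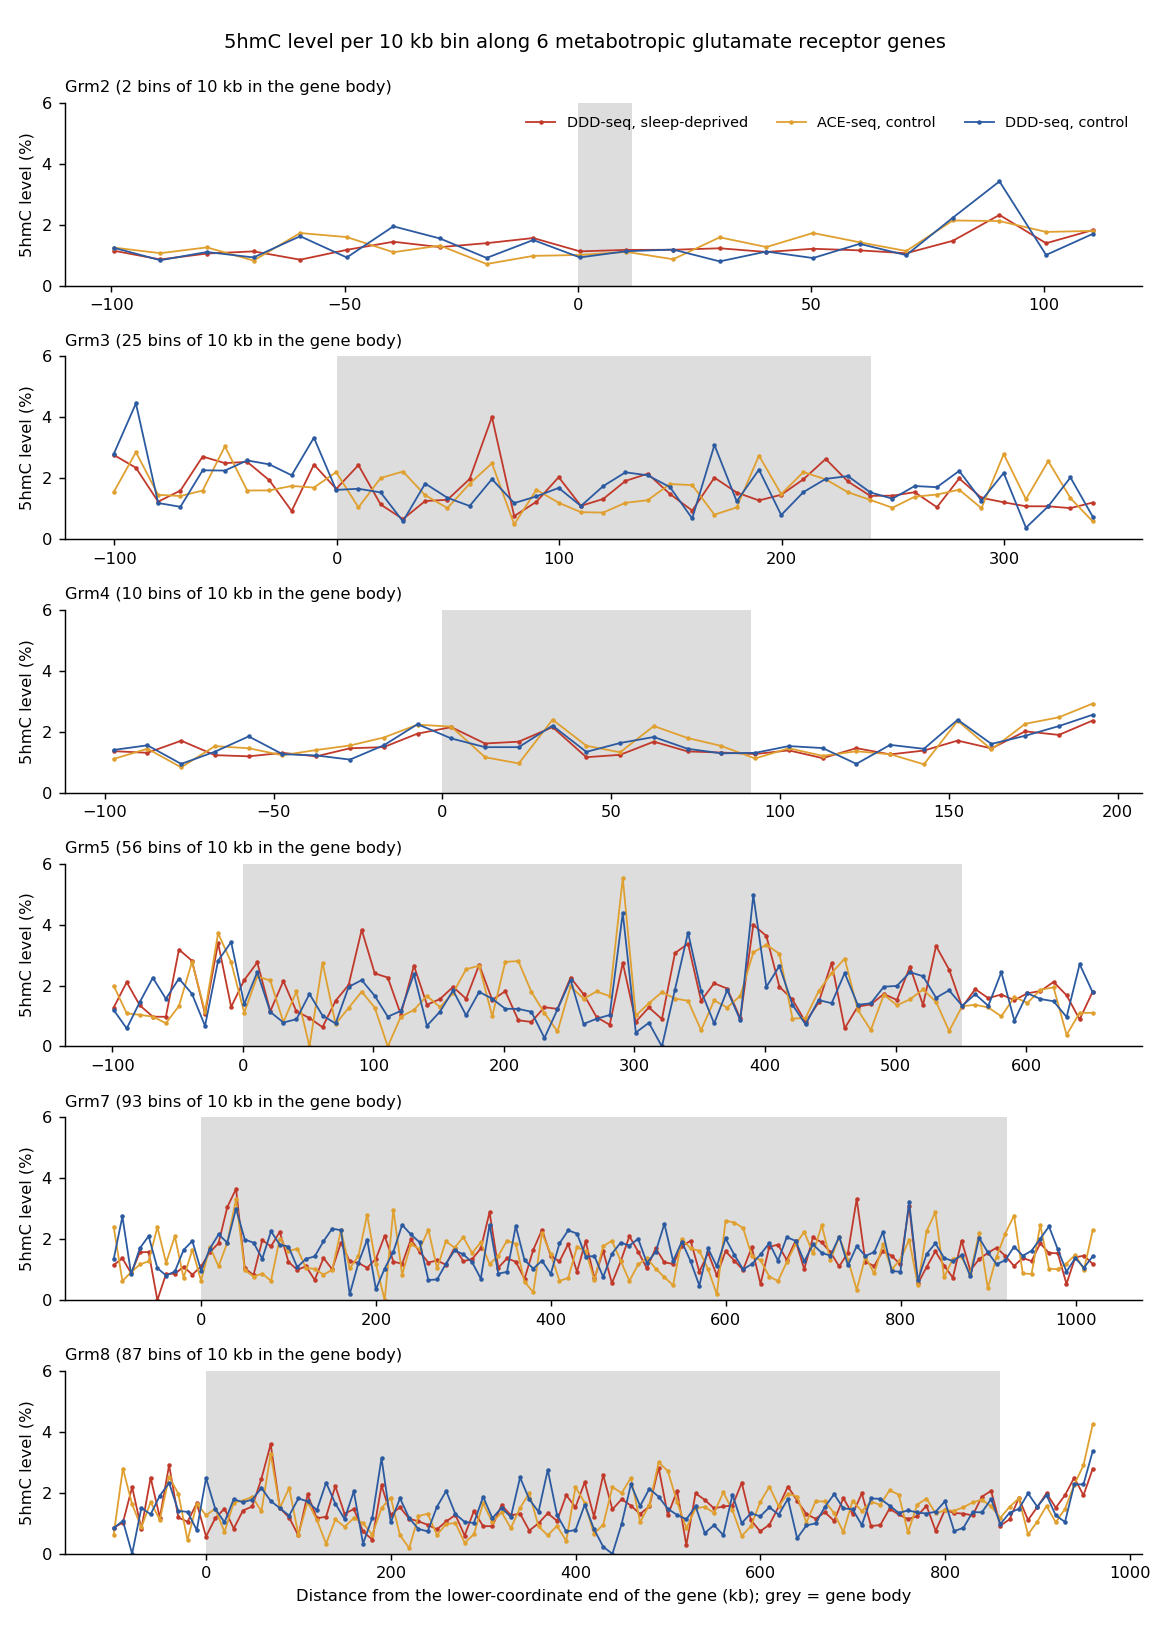
5hmC level in percent (y axis) of each 10 kb bin against the distance in kb from the lower-coordinate end of the gene (x axis), with the gene body in grey and 100 kb flanks on either side, for the sleep-deprived, ACE-seq and DDD-seq control libraries. In Grm5 a pair of bins is above the 90th percentile in all 3 libraries, reaching 5.54% by ACE-seq and 4.97% in the DDD-seq control. The pair is 3.57% of the bins of Grm5, against 5.07% of autosomal bins. No bin of Grm8 is above the 90th percentile in all 3.

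Of the 5 longer genes, Grm5 alone passed a ratio of 1.1 in either direction for sleep-deprived over control DDD-seq, with a ratio of 1.15. Among all genes of at least 5 bins, 15.8% were higher and 16.9% lower by that ratio, or 32.7% in all, and among genes of at least 20 bins 10.2% passed it. Of the 159 genes within 20% of the bin number of Grm5, 2.52% were higher by that ratio, and none had a ratio as large as that of Grm5. The difference was 0.233 percentage points with an SD of 0.757 over paired bins. The sleep-deprived library was higher in 36 of the 56 bins, or 64.3%, and no gene of like bin number had a larger share, their median being 50%.

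The difference at Grm5 was not spread evenly along the gene. In 5 consecutive segments of 11 or 12 bins, taken by rising coordinate, the level was 1.92%, 1.62%, 1.54%, 2.11% and 1.85% in the sleep-deprived library. It was 1.34%, 1.86%, 1.81%, 1.78% and 1.53% by ACE-seq, and 1.41%, 1.38%, 1.26%, 2.02% and 1.83% in the DDD-seq control. The sleep-deprived library thus stood above the control in the first 3 segments and close to it in the other 2. ACE-seq was above the DDD-seq control in the second segment and the next, and its whole-gene ratio to it was 1.05, exceeded by 9 of the 159 genes. For ACE-seq over DDD-seq none of the 5 longer genes passed 1.1, against 13.2% of all genes higher, 25.6% lower and 38.8% in all. Both comparisons share the DDD-seq control, in which Grm5 ranked lower among genes of like bin number (above 30.8% of them) than in the sleep-deprived library (47.8%) or by ACE-seq (39.6%). The difference compares 2 libraries, and whether it belongs to the deprivation, to the animals or to the libraries cannot be told apart.

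**Figure D4:**
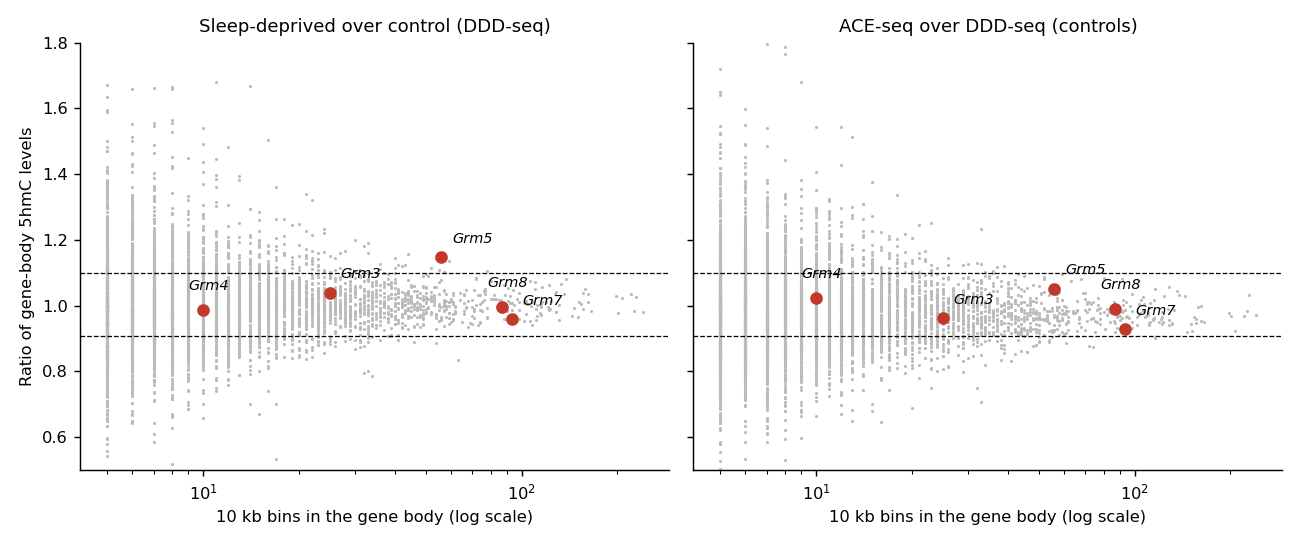
Ratio of gene-body 5hmC levels (y axis) against the number of 10 kb bins in the gene (x axis, log scale) for all protein-coding genes of at least 5 bins (grey) and 5 metabotropic receptor genes (red), sleep-deprived over control on the left and ACE-seq over DDD-seq on the right. Dashed lines mark ratios of 1.1 and 0.909, 20 genes on the left and 28 on the right lie outside the range drawn, and Grm5 is at 1.15 on the left and 1.05 on the right.

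Of the group II genes, Grm2 had the lowest level of the 6 genes in every library. Grm2, whose product is a presynaptic autoreceptor, lies on chromosome 9 from 106644534 to 106656109 and overlaps only 2 bins, 1 of which also overlaps Tex264. Its level was 1.15% ± 0.0336 in the sleep-deprived library, 1.05% ± 0.0702 by ACE-seq and 1.03% ± 0.144 in the DDD-seq control. These lie above 8.64%, 6.12% and 3.38% of genes of at least 5 bins, a set to which Grm2 does not belong. The rank of its level among genes of 2 bins was not taken. Its flanks had 1.29%, 1.38% and 1.36%, and the body was lower than the flanks past the ratio by ACE-seq and in the DDD-seq control, as were 31.1% and 30% of genes of 2 bins. Both calls of Grm2 ended with flanks of 50 kb, with ratios of 0.841 by ACE-seq and 0.842 in the DDD-seq control, and the call in the DDD-seq control also ended with the median over bins, at 0.892. Sleep-deprived over control gave a ratio of 1.12, and 29.5% of genes of 2 bins were higher past 1.1.

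Grm3, the second group II gene, is expressed in glia as well as neurons. It lies on chromosome 5 from 9485236 to 9725352 and covers 25 bins. Its level was 1.66% ± 0.699 in the sleep-deprived library, 1.54% ± 0.577 by ACE-seq and 1.60% ± 0.553 in the DDD-seq control. The highest bin, 9550001 to 9560000, had 4.01%, 2.49% and 1.97% in the same libraries. The flanks were unequal. Downstream of the gene, where all 10 bins overlap the gene Elapor2, the level was 2.10% in the sleep-deprived library, 1.86% by ACE-seq and 2.45% in the DDD-seq control. Upstream, where no bin holds a coding gene, it was 1.297%, 1.51% and 1.47%. Grm3 thus lay between its flanks, and with bins free of coding genes as the flank its body minus flank difference in the DDD-seq control changed to 0.131 points, against -0.359 points with all flank bins.

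The group III genes include the longest of the 6 genes. Grm4 encodes the receptor of parallel fibre terminals and lies on chromosome 17 from 27422387 to 27513826. Over 10 bins its level was 1.57% ± 0.361 in the sleep-deprived library, 1.62% ± 0.500 by ACE-seq and 1.59% ± 0.287 in the DDD-seq control, next to flanks of 1.52%, 1.62% and 1.61%. The largest difference between body and flanks in any library was thus 0.0488 points. The bins of Grm4 varied together across libraries, as bins did in many genes. Pearson's r over bins for the DDD-seq libraries lay above that of 76.1% of 1837 genes of like bin number. The highest, 27450001 to 27460000, had 2.16%, 2.40% and 2.21%, and no bin of the gene passed the 90th percentile in any library. Sleep-deprived over control gave 0.988, and ACE-seq over DDD-seq gave 1.02.

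Grm7 encodes a presynaptic receptor of low glutamate affinity at the active zone. It is the longest of the 6 genes, on chromosome 6 from 110645349 to 111567230, with 93 bins and no other coding gene in them or in the flanks. Its level was 1.49% ± 0.577 in the sleep-deprived library, 1.44% ± 0.683 by ACE-seq and 1.55% ± 0.565 in the DDD-seq control. These lie above 25%, 26.5% and 29.4% of the 68 genes of like bin number. The bin 110680001 to 110690000 was the highest on average, with 3.65%, 3.32% and 3.01%, and it was the only bin of Grm7 above the 90th percentile in all 3 libraries. A further bin, 111450001 to 111460000, had 3.10% in the sleep-deprived library, 1.98% by ACE-seq and 3.24% in the DDD-seq control.

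The flanks of Grm7 differed between libraries more than its body. The flanks hold 20 bins and the body 93, and an effect of bin number was not tested. The flanks had 1.18% in the sleep-deprived library, 1.48% by ACE-seq and 1.55% in the DDD-seq control. The upstream 100 kb alone had 1.02%, 1.45% and 1.51%. The body over flank ratio was 1.26, 0.976 and 1.003 in the same libraries. Under sleep deprivation the ratio was 1.06 with flanks of 200 kb, 1.19 without bins at 0 and 1.099 with the median over bins. The sleep-deprived minus control difference of the body was -0.0636 points (SD over bins 0.622), and for ACE-seq minus DDD-seq it was -0.110 points (SD 0.805).

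Grm8 encodes a group III receptor related to mGluR4 and mGluR7. It lies on chromosome 6 from 27275121 to 28135146 and covers 87 bins. Its level was 1.41% ± 0.548 in the sleep-deprived library, 1.40% ± 0.590 by ACE-seq and 1.42% ± 0.545 in the DDD-seq control, the lowest of the 5 longer genes. These lie above 18.7%, 24% and 18.7% of the 75 genes of like bin number. Its ratios were 0.996 for sleep-deprived over control and 0.990 for ACE-seq over DDD-seq. The flanks had 1.68%, 1.69% and 1.55%, and the upstream side, in which 3 of 10 bins overlap the zinc finger gene Zfp800, had 1.82%, 1.86% and 1.85%.

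Grm8 had no bin above the 90th percentile in all 3 libraries, and the order of its bins was hardly shared between the DDD-seq libraries. The highest bin on average, 27340001 to 27350000, had 3.598% in the sleep-deprived library and 3.28% by ACE-seq, but 1.73% in the DDD-seq control. Across its 87 bins, Pearson's r of the sleep-deprived library with the DDD-seq control was 0.0673 and Spearman's rho 0.0518. They were 0.0793 and 0.104 for ACE-seq with the DDD-seq control, and 0.372 and 0.284 for the sleep-deprived library with ACE-seq. Of the 75 genes of like bin number none had a lower r for the first of these pairs, and their median was 0.631. Among the 23 of them within 10% of the level of Grm8 the median r was 0.404 and the lowest 0.128. These correlations describe bins that share a library, a genome position and an unknown depth, and bins are not replicates.

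In the other longer genes the DDD-seq libraries shared more of the order of bins. Pearson's r of the sleep-deprived library with the DDD-seq control was 0.813 over the 10 bins of Grm4, 0.629 over the 56 bins of Grm5, 0.488 over the 25 bins of Grm3 and 0.407 over the 93 bins of Grm7. Spearman's rho for that pair was 0.687, 0.591, 0.568 and 0.287 in the same genes. Among genes of like bin number the median r for that pair was 0.586 for Grm4, 0.596 for Grm5, 0.610 for Grm3 and 0.586 for Grm7. Between ACE-seq and the DDD-seq control, Pearson's r was 0.751, 0.473, -0.0293 and 0.177, and rho was 0.578 in Grm4, 0.285 in Grm5 and 0.115 in Grm7. For Grm3, Spearman's rho between ACE-seq and the DDD-seq control was 0.00385, and 20 of 519 genes of like bin number had a lower r. For Grm7, 4 of 68 genes of like bin number had a lower r between ACE-seq and the DDD-seq control. Over all 273 bins of the 6 genes, 25 lay above the 90th percentile in the sleep-deprived library, 23 by ACE-seq and 14 in the DDD-seq control, where the share of all autosomal bins is 10% in each library. In all 3 libraries 3 bins did, or 1.099%, against 5.07% of autosomal bins. Of the 3, 2 belonged to Grm5 and 1 to Grm7, and 226 of the 273 bins passed it in no library.

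**Figure D5:**
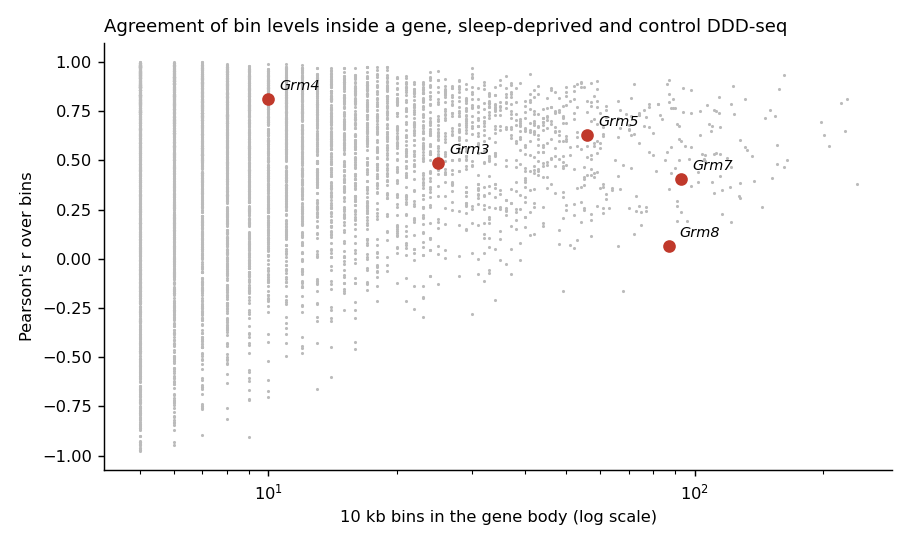
Pearson's r over the bins of a gene for sleep-deprived with control DDD-seq (y axis) against the number of 10 kb bins (x axis, log scale) for all protein-coding genes of at least 5 bins (grey) and 5 metabotropic receptor genes (red). Grm4 is at 0.813 and Grm5 at 0.629, while Grm8, at 0.0673, lies below all 75 genes of like bin number.

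The bin that holds the transcription start was compared with the rest of each gene for the 4 genes with a RefSeq promoter entry. It was lower than the rest in all 3 libraries at Grm3, Grm7 and Grm8, as in 44.7% of 5247 genes of at least 5 bins. At Grm7 the start bin had 1.11% in the sleep-deprived library, 0.637% by ACE-seq and 0.969% in the DDD-seq control, against 1.49%, 1.45% and 1.56% for the rest of the gene. At Grm8 it had 0.923%, 1.18% and 0.975%, against 1.42%, 1.40% and 1.42%. At Grm3 it had 1.42%, 1.29% and 1.54%, against 1.67%, 1.55% and 1.60%. At Grm2 the start bin, which is 1 of its 2 bins, had 1.17%, 1.104% and 1.13%, against 1.12%, 1.005% and 0.923% for the other. Over all such genes the start bin was lower than the rest by a median of 0.167 points in the mean of the libraries.

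The 250 bases before the start are shown for the 3 genes whose start lies at the end of the gene body, because CpG sites, the main substrate of TET enzymes, differ in density between them. The sequences are from RefSeq (GRCm38.p6), all on the minus strand, written 5′ to 3′ with each CG in capitals. A CG reads the same on both strands. The window of Grm8 (chr6:28135147-28135396) held 29 CG, more than 91.9% of 17492 promoters, and that of Grm2 (chr9:106656110-106656359) held 16. The window of Grm3 (chr5:9725353-9725602) held 8, below the median of 10, and 92.6% of all promoters held at least 1.
Grm8: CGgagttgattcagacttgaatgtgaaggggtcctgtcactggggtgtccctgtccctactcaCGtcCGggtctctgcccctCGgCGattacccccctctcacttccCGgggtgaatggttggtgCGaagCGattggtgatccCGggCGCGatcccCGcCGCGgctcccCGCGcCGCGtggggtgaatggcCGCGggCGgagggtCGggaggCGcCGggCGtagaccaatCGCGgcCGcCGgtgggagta
Grm2: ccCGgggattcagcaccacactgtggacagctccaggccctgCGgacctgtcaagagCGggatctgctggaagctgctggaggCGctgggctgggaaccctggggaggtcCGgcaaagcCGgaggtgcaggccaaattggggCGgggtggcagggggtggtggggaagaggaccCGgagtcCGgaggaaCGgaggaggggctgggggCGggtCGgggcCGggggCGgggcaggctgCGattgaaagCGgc
Grm3: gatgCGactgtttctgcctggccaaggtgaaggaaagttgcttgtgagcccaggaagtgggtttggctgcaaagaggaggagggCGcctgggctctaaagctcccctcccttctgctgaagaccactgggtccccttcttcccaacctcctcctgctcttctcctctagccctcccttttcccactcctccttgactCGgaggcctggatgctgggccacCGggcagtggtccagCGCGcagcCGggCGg
The start bins of these genes, at 0.923 to 1.54% over the 3 libraries, are means over 10 kb and do not resolve these windows. The order of CG number, Grm8, Grm2 and Grm3, is the reverse of the order of their start bins in both DDD-seq libraries, over 3 genes only. By ACE-seq, Grm8 lay between Grm2 and Grm3. Grm7, whose start lies inside the gene body, breaks that order. Its window held 8 CG, as did that of Grm3. Its start bin had 1.11% in the sleep-deprived library, below Grm2, and 0.969% in the DDD-seq control, below Grm8.

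The body of Grm8 also contains the only annotated microRNA of the 6 genes, Mir592, on the same strand as the receptor. Its mature forms are shown with the seed, bases 2 to 8, in capitals, because they mark a second transcribed product inside the lowest of the longer genes. They lie at 27936711 to 27936733 (5p) and 27936672 to 27936693 (3p) of chromosome 6 (RefSeq, GRCm38.p6).
mmu-miR-592-5p: aUUGUGUCaauaugcgaugaugu
mmu-miR-592-3p: uCAUCACGuggugacgcaacau
The bin that holds both, 27930001 to 27940000, had 1.15% in the sleep-deprived library, 1.72% by ACE-seq and 1.001% in the DDD-seq control. These values lie within 1 SD of the mean of the gene in each library.

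The genes of most like level, by distance over the 3 libraries among genes of like bin number, were Stxbp6 and Tbc1d1 for Grm3, Fut10 and Zc3h3 for Grm4, Epha6 and Sgcd for Grm7, and Nell1 and Arhgap24 for Grm8. Each lay within 0.0644 points of its receptor gene. Trappc9, 1 of the 2 nearest genes for Grm5, lay at 0.119 points, from 159 candidates, with 1.79% in the sleep-deprived library, 1.66% by ACE-seq and 1.69% in the DDD-seq control.

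Partners and effectors of these receptors had a higher median level than the receptors, a difference that was not tested. Of 48 listed genes, 47 were found and 34 had at least 5 bins. Their median was 1.89% in the sleep-deprived library, 1.90% by ACE-seq and 1.96% in the DDD-seq control. A body higher than the flanks in all 3 libraries was seen in 17 of the 34, or 50%, against 27.9% of all genes. The highest were Kcnj3, a subunit of G protein-gated potassium channels, with 4.93%, 4.61% and 4.65%, and Gnaq, the G protein alpha subunit downstream of group I receptors, with 3.52%, 3.51% and 3.61%. The adenylyl cyclase gene Adcy2 was 1 of the 2 lowest, with 1.24%, 1.11% and 1.27%. For sleep-deprived over control, 2 of the 34 were higher and 6 lower past the ratio of 1.1, next to 15.8% and 16.9% of all genes. The 2 higher ones were the receptor kinase gene Grk4, with 1.34% under sleep deprivation and 1.12% in the control, and the G protein beta subunit gene Gnb5, with 2.51% and 2.09%. Bin by bin, the sleep-deprived library was higher in 6 of the 10 bins of Grk4 but in only 2 of the 5 bins of Gnb5. The Gnb5 difference of 0.426 points had an SD of 1.12 over paired bins. The 6 lower ones, 17.6% of the 34, had ratios between 0.825 and 0.907. The one nearest the threshold, at 0.907, was Homer1, a scaffold that binds mGluR5, with 2.97% under sleep deprivation and 3.27% in the control. Homer2, which like Homer1 has 11 bins, was not called, with a ratio of 1.02.

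The ionotropic receptor genes covered a wider range than the metabotropic ones. A body higher than its flanks in all 3 libraries was seen in 4 of 6 AMPA and delta receptor genes, 1 of 5 kainate receptor genes and 2 of 4 NMDA receptor genes. It was seen in none of the 5 longer metabotropic genes, and in 27.9% of all genes. The medians of the AMPA and delta list were 2.30% in the sleep-deprived library, 2.18% by ACE-seq and 2.28% in the DDD-seq control, those of the kainate list 1.32%, 1.34% and 1.27%, and those of the NMDA list 1.75%, 1.66% and 1.72%. The highest kainate receptor gene, Grik2, had 4.94%, 5.05% and 5.02%. Of the 5 metabotropic genes, Grm5 was the highest in the sleep-deprived library (1.81%) and by ACE-seq (1.66%). In the DDD-seq control it was Grm3 (1.60%). With 4 to 6 genes in each list these are descriptions, and no difference between the lists was tested.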

How the data were processed

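Genomic DNA of mouse cerebellum was profiled in 3 libraries, 1 per group (sleep-deprived by DDD-seq, control by ACE-seq, control by DDD-seq). The deposited table gives 1 value per 10 kb bin and library, read as a fraction from its range. FastQC, Trimmomatic and Bismark are named in the submitters' processing notes. Cytosine contexts, coverage filters and the averaging were not given in the sources used here. Both DDD-seq column names contain "all", which may mean that runs were pooled. The notes name hg19, but the bins end 1.33 to 212 kb after the last gene of each chromosome in RefSeq GRCm38.p6 and were read as that build.

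Fractions were multiplied by 100. A level is the mean over bins that overlap the gene by at least 1 bp and have a value in all 3 libraries. Genes of like bin number lie within 20% of the member. The calls were ratios of 1.2 (body over 100 kb flanks) and 1.1 (between libraries). No test, counting interval or detection limit was possible without replicates or coverage. The members and lists were chosen with earlier results of these data known. By rule the text names the members, the highest bin of each, the 2 genes nearest in level, and the 2 highest and 2 lowest partners. A few items named by the rule are not reported here. Further genes, bins and segments were chosen after their values were seen. Functions were checked on simulated data. The software was matplotlib 3.10.9, scipy 1.17.1, pandas 2.3.3 and numpy 2.4.6 under Python 3.11.15.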

Additional observations from a re-analysis of the deposited data

How the results depend on the processing

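Grm5 has no bin shared with another coding gene, so leaving out such bins could not change its values. Its ratio for sleep-deprived over control stayed past 1.1 with bins wholly inside the gene and without bins at 0. It also did with the median and without the highest bin, and across these settings the difference lay between 0.149 and 0.267 points. With the median over bins, 2 of the 5 longer genes passed that ratio (Grm5 higher, Grm7 lower), and 1 (Grm5 higher) passed it for ACE-seq over DDD-seq, where the mean gave 0. The counts of genes past the body over flank ratio, 1 in each library, were less stable. In the sleep-deprived library the count was 0 without bins at 0 and with 200 kb flanks, and 2 without the highest bin and with flank bins free of coding genes. With the median it stayed at 1, but Grm7 was no longer called (ratio 1.099) and Grm8 was called lower (0.826). By ACE-seq it was 0 with the median and with 50 kb, 200 kb or gene-free flanks. In the DDD-seq control it was 2 with 50 kb flanks and 0 with 200 kb or gene-free flanks. Grm3 turned to 0.131 points there with gene-free flanks, by construction, since the bins of Elapor2 leave the flank. The cause of the other changes was not tested. Of 199 single-gene values under alternatives, 145 moved by less than 1 SE over bins, 53 moved by more and 1 changed sign from a called value. The 145 include settings that could not change a value, such as leaving out shared bins in Grm4, Grm5, Grm7 and Grm8. They are therefore no measure of stability. Among the 199 values, 12 lost their call and 6 gained one. Among genes of at least 20 bins, 10.2% passed the ratio for sleep-deprived over control and 15.5% that for ACE-seq over DDD-seq, against 32.7% and 38.8% at 5 bins. No paired analysis was possible because each group has 1 library. Without coverage, the depth of each bin limits every value to an unknown degree.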

Other observations

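Coding genes in the flanks of the receptor genes differed in level. Elapor2, which lies next to Grm3, had 2.12% in the sleep-deprived library, 2.13% by ACE-seq and 2.22% in the DDD-seq control over its whole body, above Grm3 in each. Beside Grm4, Nudt3 had 1.81%, 2.16% and 1.99%, above Grm4 in each library, while Hmga1 had 1.33%, 1.102% and 1.51% and AI413582 had 1.39%, 0.936% and 1.44%, below it in each. Zfp800, beside Grm8, had 1.66%, 1.82% and 1.83%. Tyr, the melanocyte tyrosinase gene beside Grm5, had 1.74% in the sleep-deprived library, 1.23% by ACE-seq and 1.12% in the DDD-seq control, below Grm5 in each. These genes were chosen after their values were seen.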
